A study of Danio rerio with 8 samples.

Results

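Ion channel genes were examined in adult zebrafish ventricular cardiomyocytes that were sorted by the reporter of *tbx5a*, a T-box transcription factor gene. A gene was taken as a member if its Ensembl symbol, with case ignored, begins with kcn (potassium channels), scn and a digit (sodium channels), cacn (calcium channels) or hcn and a digit (hyperpolarization-activated channels) and if it reached 1 CPM (the value as a share of the library total, on the usual CPM scale) in 2 or more libraries. This gave 52 members of 13895 genes tested, out of 31388 genes in the table. They comprised 26 potassium, 10 sodium, 14 calcium and 2 HCN genes. Another 139 genes with such a symbol stayed under the filter, and 86 of these were listed at 0 in all 8 libraries.

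The cells came from ventricles of double transgenic fish of 6 to 9 months that carried *tbx5a:GFP* and *myl7:nuc-dsRed*. The second transgene uses the promoter of the cardiomyocyte gene *myl7* to label cardiomyocyte nuclei, and both populations carry both transgenes. Cells positive for GFP and nuc-dsRed formed the *tbx5a*+ population and cells positive for nuc-dsRed alone formed the *tbx5a*− population. Each population has 4 libraries, numbered 2, 8, 9 and 10. Each number stands for a pool of 5 hearts from which both populations were sorted, so libraries of the same number form a pair.

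The action potential of a ventricular cardiomyocyte is built by these channels. Sodium channels carry the rapid upstroke, L-type calcium channels admit the calcium that triggers contraction, potassium channels repolarize the membrane and hold it at rest, and HCN channels carry the pacemaker current. Pore-forming subunits work together with auxiliary subunits, which set how many channels reach the membrane and how they open and close. The question was which of these genes differ in transcript level between the populations.

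The values are normalized expression values that the authors deposited, scaled between libraries but not divided by transcript length, so levels are compared between populations and never between genes. Most low values of a library, 70.5% to 77.0%, were multiples of what 1 read was worth there, and library totals divided by that worth gave 8076619 to 9491526 estimated reads in *tbx5a*+ and 7149239 to 9204001 in *tbx5a*− libraries. Genes above 0 numbered 13706 to 14983 in *tbx5a*+ and 11329 to 13793 in *tbx5a*− libraries, with the fewest in the *tbx5a*− libraries 9 (11329) and 2 (12225). The sorted gene itself, *tbx5a* (ENSDARG00000024894), had values of 4919, 3494, 3197 and 4919 in the *tbx5a*+ libraries 2, 8, 9 and 10, against 442, 346, 90.5 and 119 in the *tbx5a*− libraries in the same order. Summed markers of cardiomyocytes were 325483 to 396864 in *tbx5a*+ and 318056 to 379966 in *tbx5a*− libraries. Those of smooth muscle and mural cells were 185 to 545 in *tbx5a*+ and 563 to 2784 in *tbx5a*− libraries. Of 5 tested, 2 were called lower in *tbx5a*+ (*acta2* and a *TAGLN* gene), against 0.187% of all genes tested. Of these markers *CNN1* (ENSDARG00000102398) had 24.6, 23.6, 0 and 47.0 in *tbx5a*+ libraries, against 38.4, 64.4, 171 and 56.7 in *tbx5a*− libraries, lower in *tbx5a*+ in 4 of 4 pairs but not called (log2 fold change −2.43), and a second *CNN1* entry was at 0 in all 8. The other *TAGLN* gene (ENSDARG00000033466) had 28.75, 32.4, 38.2 and 32.9 in *tbx5a*+ libraries, against 27.4, 12.3, 8.3 and 39.5 in *tbx5a*− libraries. It was higher in *tbx5a*+ in 3 of 4 pairs (log2 fold change 0.80), and *MYH11* had a log2 fold change of −0.37 (SE 1.54). The part of smooth muscle and mural cells in the channel results was not tested. Neuron and glia markers, which matter for channels known mainly from neurons, summed to 0 to 30.9 in *tbx5a*+ and 16.1 to 56.8 in *tbx5a*− libraries, and SNAP25, STMN2, mbpa and S100B were at 0 in all 8. In bulk samples fewer cells of a type and less RNA per cell cannot be told apart.

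Detection set what could be compared. Of the 52 members, 17 reached 1 CPM in all 8 libraries: 6 potassium, 3 sodium, 7 calcium and 1 HCN gene. The other 35 were sparse, 33 members had at least 1 library at 0, and 36 never reached a value of 100. A channel gene was above 0 in 45, 39, 46 and 44 of 52 cases in the *tbx5a*+ libraries 2, 8, 9 and 10, against 37, 43, 29 and 43 in the *tbx5a*− libraries, so the *tbx5a*− libraries with the fewest genes above 0 also had the fewest channel genes above 0. At 1 CPM, 44 members were reached in both populations, 5 in *tbx5a*+ libraries alone (*KCNC2*, *kcnh7*, *KCNJ6*, *kcnj11* and *scn1laa*) and 3 in *tbx5a*− libraries alone (*CACNA1B*, *cacna1ha* and *KCNMA1*). The second-highest CPM, on which membership turned, was 1.02 for *KCNJ6*, 1.16 for *kcnj11* and 1.16 for *scn1laa* just inside the rule, against 0.978 for *KCNJ3* (ENSDARG00000062217) and 0.949 for *CACNA1S* (ENSDARG00000042552) just outside it. Symbols in capitals, held by 29 members, are human-style names in the Ensembl table.

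**Figure D1:**
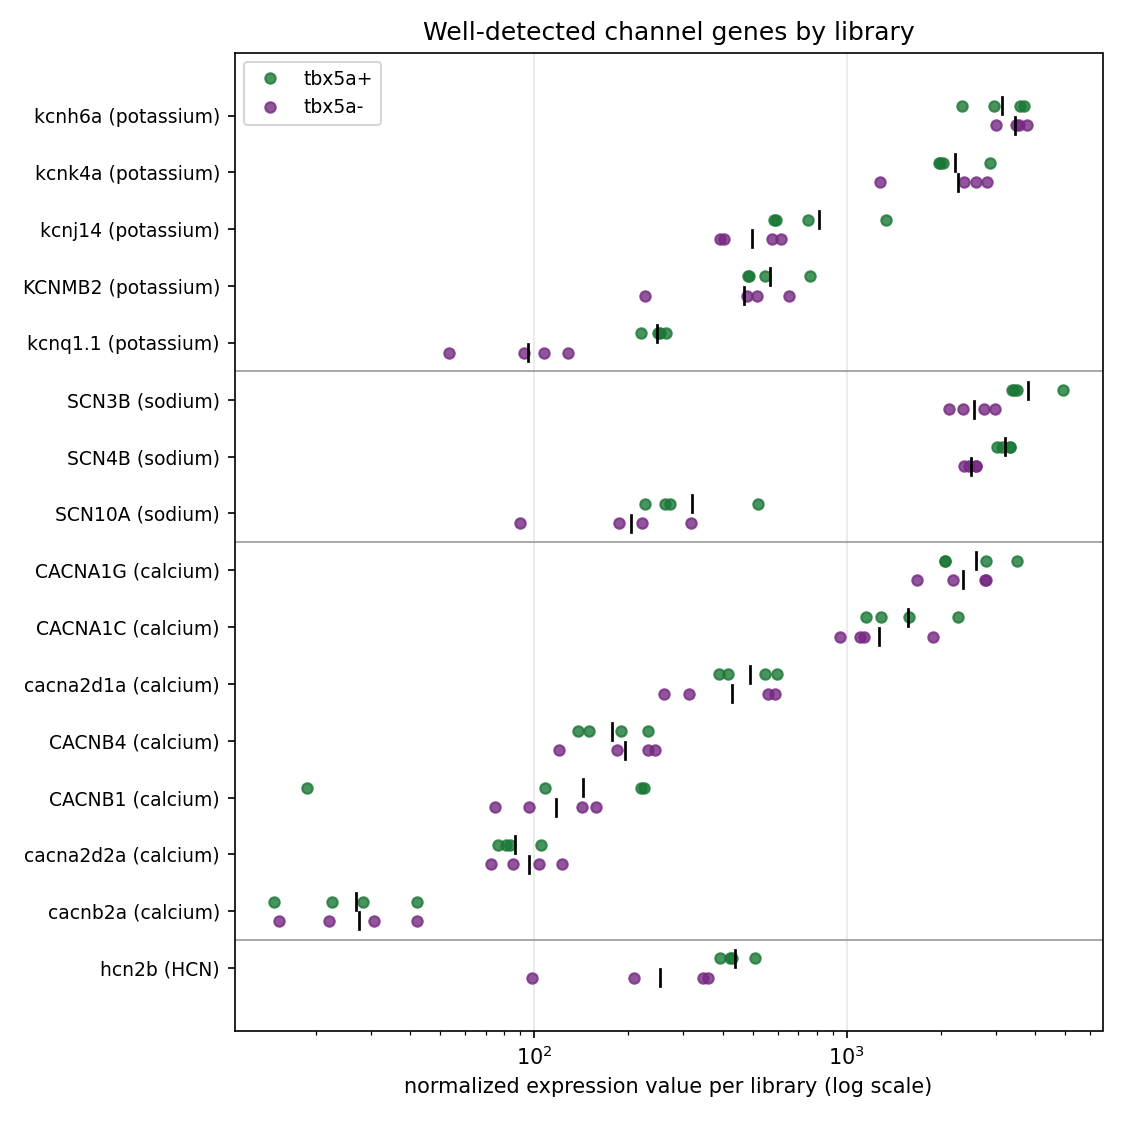
Normalized expression values (log scale) of 16 channel genes at 1 CPM or more in all 8 libraries, with 1 point per library, *tbx5a*+ above *tbx5a*− within each gene, and a black bar at the mean of each population. The populations stand apart for *kcnq1.1*, *SCN3B*, *SCN4B* and *hcn2b* and overlap for the other 12 genes.

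No channel gene passed the test. log2(value + 1) was compared with limma over all 13895 genes, and a call needed an adjusted p (Benjamini–Hochberg) no greater than 0.05 together with a change of 1 or more on the log2 scale in either direction. Of the 52 members, 0 were called higher and 0 lower in *tbx5a*+ cardiomyocytes, where 0.0072% of all genes tested were called higher and 0.187% lower. With the pair as a block, 0 members were called either way, against 0.137% of all genes higher and 0.281% lower. With limma-voom on estimated reads, 0 were called either way as well. At an unadjusted p under 0.05, 7 members were higher (13.5% of members, against 4.62% of all genes tested) and 0 were lower (against 2.44%). These 7 were *kcnq1.1*, *kcnj14*, *KCNC2*, *kcnh7*, *SCN3B*, *cacng6b* and *hcn2b*. *KCNC2* and *kcnh7* among them passed the 1 CPM filter through *tbx5a*+ libraries alone, so the filter favoured this direction for them. *cacng6b* reached 1 CPM in 4 *tbx5a*+ libraries and 1 *tbx5a*− library. Its *tbx5a*− libraries would not have met the filter, so the filter favoured this direction for it too. Among the 17 members at 1 CPM in all 8 libraries, 4 were higher and 0 lower at that p. Of the 6445 genes tested that reached 1 CPM in all 8 libraries, 284 were higher and 167 lower. A difference of the members as a group was not tested, and the members were chosen with earlier results known. Without the *tbx5a*− libraries 2 and 9 the counts over all 52 members were 4 higher and 2 lower, an alternative chosen with earlier results known. Those 2 lower genes, *cacna1ha* and *KCNMA1*, passed the filter through *tbx5a*− libraries alone, so the filter favoured this direction for them. Without the *tbx5a*+ library 2 alone 4 were higher, and without the *tbx5a*− library 9 alone 3 were higher and 1 was lower. The shares of all genes were not counted with libraries left out, so these counts have no background beside them.

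The order of the libraries was counted as well. In 5 members the lowest *tbx5a*+ library exceeded the highest *tbx5a*− library (*kcnq1.1*, *KCNC2*, *SCN3B*, *SCN4B* and *hcn2b*; 9.62% of members, against 2.32% of all genes), and in 0 members the reverse held (against 1.65%). *KCNC2* among the 5 passed the 1 CPM filter through *tbx5a*+ libraries alone, so the filter favoured this order for it. Among the 17 members at 1 CPM in all 8 libraries, *tbx5a*+ lay wholly above in 4 and wholly below in 0. Among the 6445 genes tested at that level it lay wholly above in 161 and wholly below in 113. A difference of the members as a group was not tested here either. By pair, 6 members were higher in *tbx5a*+ in 4 of 4 pairs (11.5%, against 9.54% of all genes) and 2 were lower in 4 of 4 (3.85%, against 5.38%). The 2 lower ones, *kcnb2a* and *CACNA1B*, are named here because their pairs were seen to differ one way. *CACNA1B* passed the 1 CPM filter through *tbx5a*− libraries alone, so the filter favoured this direction for it. Among the 6 higher ones the filter favoured being higher for *KCNC2*, which passed it through *tbx5a*+ libraries alone. *kcnj12a*, also among the 6, reached 1 CPM in 3 *tbx5a*+ libraries and 1 *tbx5a*− library. Its *tbx5a*− libraries would not have met the filter, so the filter favoured being higher for it too. The median log2 fold change was 0.33 for potassium, 0.46 for sodium, −0.07 for calcium and 0.59 for HCN genes, against 0.20 for all genes tested, and the medians of the 4 pairs spread around these with an SD of 0.81, 0.79, 0.43 and 1.86. Each group median lay within its SD of the median of all genes. That SD is the spread between pairs and not the error of the median, so a difference of a group was not tested. Among the 17 well-detected members the median was 0.25, against 0.07 for the 6445 genes tested that reached 1 CPM in all 8 libraries. The medians of the pairs 2, 8, 9 and 10 for the 17 were 0.68, 0.015, 0.36 and 0.085 (SD 0.30). For the 6445 genes they were 0.071, 0.069, 0.028 and 0.056 in the same order. By group, the well-detected medians were 0.19 for 6 potassium, 0.57 for 3 sodium and −0.03 for 7 calcium genes. The SD of their pair medians was 0.30, 0.47 and 0.40 in that order. These differences from the 6445 genes were not tested.

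**Figure D2:**
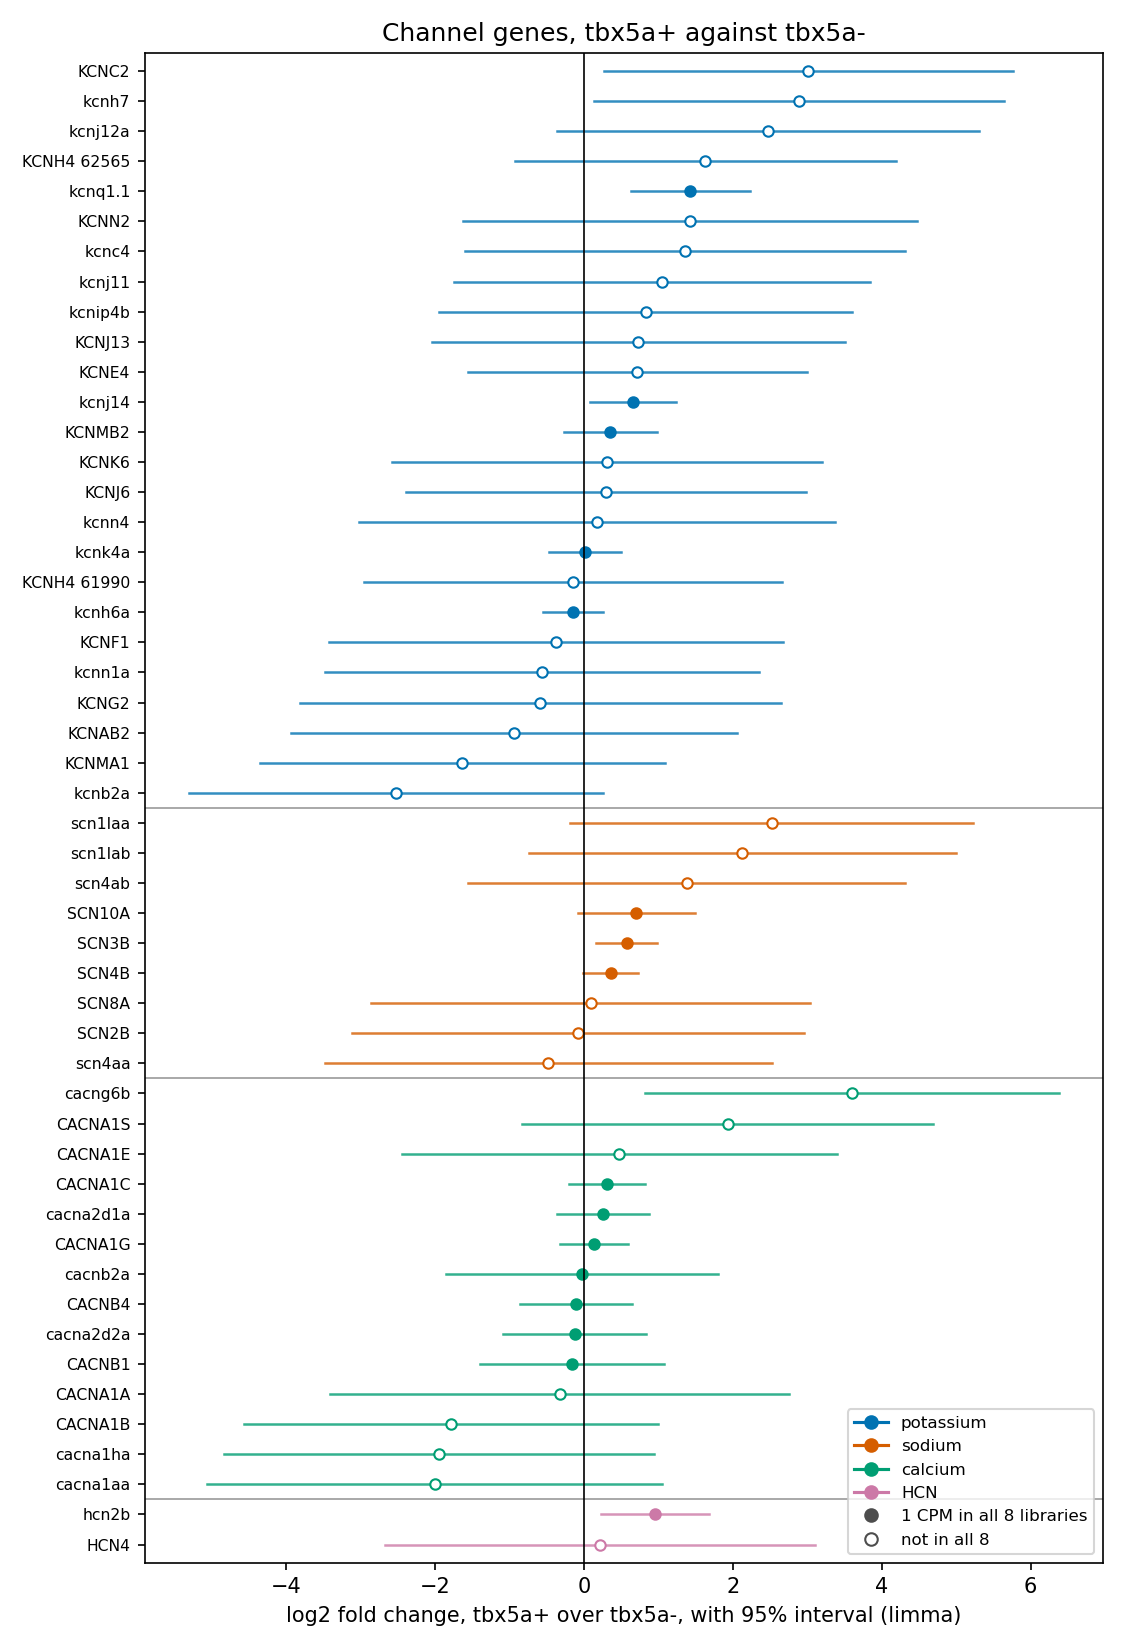
log2 fold change of *tbx5a*+ over *tbx5a*− with its 95% interval from limma for 50 channel genes, by group, filled points for 16 genes at 1 CPM in all 8 libraries and open points for the other 34 (*KCNH4* carries the last digits of its ID). The filled points lie between -0.16 and 1.43, and the open points between -2.53 and 3.60 with intervals that mostly span 0.

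The intervals in the plot of fold changes show how far the data can speak. The median standard error of the log2 fold change was 0.30 for the 17 well-detected members and 1.40 for the other 35. The median coefficient of variation over libraries was 23.1% in *tbx5a*+ and 30.2% in *tbx5a*− libraries for the 17, against 97.8% in *tbx5a*+ and 130% in *tbx5a*− libraries for the 35. For the sparse members the 95% intervals were mostly several log2 units wide.

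Among voltage-gated potassium channels, *kcnq1.1* (ENSDARG00000059798) had the lowest p of all members. It encodes the pore-forming subunit of the slow delayed rectifier, which helps to end the action potential. Its values were 249.5, 253, 264 and 220.1 in the *tbx5a*+ libraries 2, 8, 9 and 10, against 107, 128, 53.4 and 92.8 in the *tbx5a*− libraries. The *tbx5a*+ libraries lay close together and all above the highest *tbx5a*− library. *tbx5a*+ cardiomyocytes averaged 247 ± 18.7 and *tbx5a*− cardiomyocytes 95.3 ± 31.4 (SD, n = 4 libraries each), a ratio of 2.59. The log2 fold change was 1.43 (95% interval 0.63 to 2.23), higher in 4 of 4 pairs, and did not pass the correction (adjusted p = 0.271 from limma). Over 18 alternatives the log2 fold change stayed between 1.17 and 1.59 and the adjusted p between 0.0962 and 0.739. *KCNE4* (ENSDARG00000068257), an auxiliary subunit that inhibits the channel formed by KCNQ1 in mammals, had 19.3, 31.2, 37.3 and 6.24 in the *tbx5a*+ libraries, against 6.31, 15.7, 9.45 and 18.4 in the *tbx5a*− libraries. Its populations overlapped and its log2 fold change was 0.72 (SE 1.11).

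*kcnh6a* (ENSDARG00000001803), which in zebrafish encodes the channel of the rapid delayed rectifier, showed no such difference. Its values were 2334, 3596, 2954 and 3691 in the *tbx5a*+ libraries, against 2994, 3761, 3566 and 3481 in the *tbx5a*− libraries. The populations overlapped, and the log2 fold change of −0.15 had a 95% interval of −0.56 to 0.25, from a standard error of 0.20. *kcnh7* (ENSDARG00000062687), another gene of the ERG family, was found in *tbx5a*+ libraries alone, at 6.16, 26.5, 0 and 14.1, against 0 in all 4 *tbx5a*− libraries. These are 48 estimated reads against 0. The *tbx5a*+ mean was 3.75 times a floor of 3 reads per library, which counts no error of that mean and is no lower bound. The 95% interval of the log2 fold change was 0.13 to 5.64, and limma's adjusted p was 0.700. The gene entered the members through *tbx5a*+ libraries alone, so these values are a description. The libraries were amplified from 0.6 ng of RNA in 2 rounds, so such reads may stem from few molecules.

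Other voltage-gated potassium genes were low. *KCNC2* (ENSDARG00000057468), a fast delayed rectifier gene known mainly from neurons, had 27.7, 10.8, 14.1 and 16.5 in the *tbx5a*+ libraries, against 7.17, 0, 0 and 1.61 in the *tbx5a*− libraries. The populations did not overlap, on 70.4 estimated reads against 8.4, and the log2 fold change was 3.01 (SE 1.33, adjusted p = 0.685 from limma). *KCNC2* entered the members through *tbx5a*+ libraries alone, so these values are a description. *kcnb2a*, which encodes a channel of the delayed rectifier family Kv2, had 0, 9.82, 13.4 and 0 in the *tbx5a*+ libraries, against 13.2, 20.4, 20.2 and 25.8 in the *tbx5a*− libraries. It was lower in *tbx5a*+ in 4 of 4 pairs, with the highest *tbx5a*+ library just above the lowest *tbx5a*− library, and its log2 fold change of −2.53 did not pass the test (unadjusted p = 0.0735 from limma). *KCNH4* (ENSDARG00000062565) had 59.0, 46.8, 32.1 and 18.9 in the *tbx5a*+ libraries, against 2.70, 62.1, 0 and 87.0 in the *tbx5a*− libraries, where it was near 0 in the libraries 2 and 9. Its log2 fold change of 1.63 turned to −1.01 without these 2 libraries. *KCNG2* and *KCNF1* encode modulatory subunits that form no channel alone. *KCNG2* had 0 to 29.4 in *tbx5a*+ and 0 to 83.9 in *tbx5a*− libraries, and *KCNF1* had 0 to 26.4 in *tbx5a*+ and 0 to 37.3 in *tbx5a*− libraries. *kcnc4*, of the same family as *KCNC2*, had 1.88 to 45.9 in *tbx5a*+ and 0 to 25.2 in *tbx5a*− libraries. The second *KCNH4* entry (ENSDARG00000061990) was above 0 in 1 library of each population, at 10.5 in *tbx5a*+ and 16.4 in *tbx5a*−. *kcnip4b*, which encodes a calcium-binding partner of Kv4 channels, had 5.97 to 14.9 in *tbx5a*+ and 0 to 36.4 in *tbx5a*− libraries.

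Of the inward rectifiers, which hold the resting potential, *kcnj14* (ENSDARG00000075914) was the only member of its class at 1 CPM in all 8 libraries. It encodes a subunit of the Kir2 family. Its values were 1333, 584, 593 and 752 in the *tbx5a*+ libraries, against 393, 615, 404 and 577 in the *tbx5a*− libraries. The *tbx5a*+ library 2 stood far above the other 7, and the *tbx5a*− library 8 lay above 2 *tbx5a*+ libraries. Its log2 fold change was 0.65 (95% interval 0.08 to 1.23, adjusted p = 0.673 from limma), higher in 3 of 4 pairs. With the pair as a block the adjusted p from limma was 0.396. *kcnj12a* (ENSDARG00000104965), also of the Kir2 family, had 11.3, 1.96, 14.3 and 16.9 in the *tbx5a*+ libraries, against 0, 0, 0 and 9.45 in the *tbx5a*− libraries. It was higher in 4 of 4 pairs but on 46 estimated reads against 11, and its log2 fold change of 2.48 had a 95% interval of −0.36 to 5.31. *kcnj12a* reached 1 CPM in only 1 *tbx5a*− library and so met the filter through its *tbx5a*+ libraries, and these values are a description. *kcnj11* (ENSDARG00000051880), the pore of the ATP-sensitive potassium channel, had 23 estimated reads in *tbx5a*+ and 7 in *tbx5a*− libraries. *KCNJ13* (ENSDARG00000043443), of the Kir7 family, ranged from 4.52 to 34.8 in *tbx5a*+ and from 0 to 56.5 in *tbx5a*− libraries. *KCNJ6*, of the family gated by G proteins, ranged from 2.44 to 10.9 in *tbx5a*+ and from 2.03 to 8.33 in *tbx5a*− libraries.

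The two-pore channel gene *kcnk4a* (ENSDARG00000103286) encodes a background potassium channel that in mammals responds to membrane stretch. It had 2880, 1989, 2036 and 1978 in the *tbx5a*+ libraries, against 2584, 2367, 1273 and 2817 in the *tbx5a*− libraries. The populations overlapped, and the log2 fold change of 0.02 had a 95% interval of −0.46 to 0.50. Its sign changed with CPM scaling. *KCNMB2* (ENSDARG00000001712), the beta subunit of large-conductance calcium-activated channels, had 546, 482, 485 and 760.1 in the *tbx5a*+ libraries, against 226, 477, 652 and 515 in the *tbx5a*− libraries, and overlapped (log2 fold change 0.35, SE 0.30). The gene of the matching pore, *KCNMA1*, was above 0 in 1 *tbx5a*+ library, at 0.96, and in 2 *tbx5a*− libraries, at 12.3 and 12.9. Of the small-conductance calcium-activated channels, *kcnn1a* (ENSDARG00000091306) had 0 to 37.0 in *tbx5a*+ and 1.22 to 38.8 in *tbx5a*− libraries. *KCNN2* (ENSDARG00000014939), of the same family, had 0.98 to 25.8 in *tbx5a*+ libraries, against 28.3 in the *tbx5a*− library 10 and 0 in the other 3. *KCNAB2* (ENSDARG00000062134), a cytoplasmic beta subunit, had 0 to 45.2 in *tbx5a*+ and 1.19 to 102 in *tbx5a*− libraries, with the highest value of each population in library 2. *kcnn4*, the intermediate-conductance channel gene, had 0 to 32.9 in *tbx5a*+ and 0 to 30.7 in *tbx5a*− libraries, and the other two-pore gene, *KCNK6*, was above 0 in 1 library of each population, at 25.6 in *tbx5a*+ and 10.4 in *tbx5a*−. None of these was at an unadjusted p under 0.05.

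**Figure D3:**
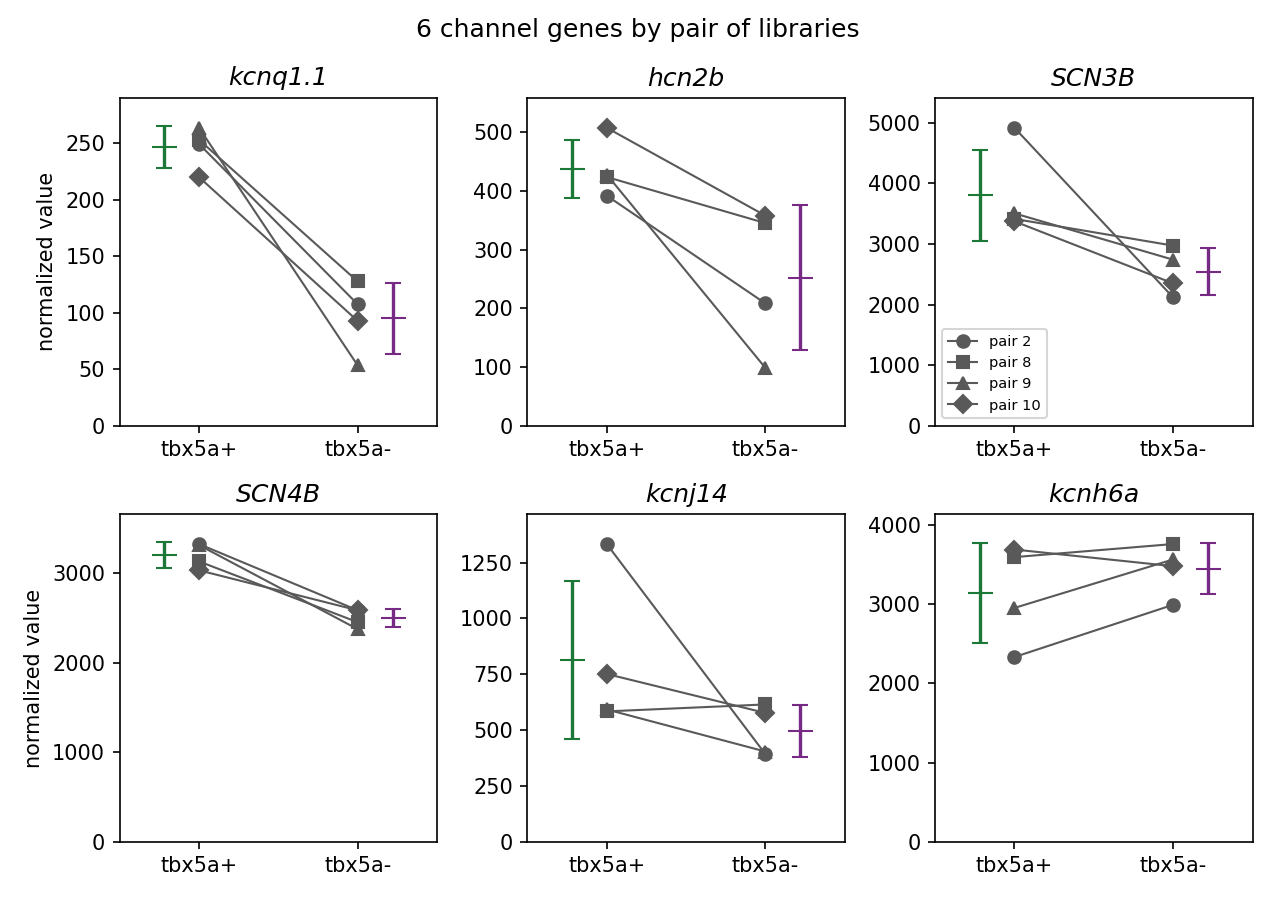
Normalized values of *kcnq1.1*, *hcn2b*, *SCN3B*, *SCN4B*, *kcnj14* and *kcnh6a* in *tbx5a*+ (left) and *tbx5a*− (right) libraries, with a line for each pair and the mean and SD of each population beside the points. Lines fall from *tbx5a*+ to *tbx5a*− in all 4 pairs of the first 4 genes, in 3 of 4 pairs of *kcnj14* and in 1 of 4 pairs of *kcnh6a*.

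In the sodium group, the beta subunits *SCN3B* and *SCN4B* stood apart between the populations. Beta subunits cross the membrane once and modulate the gating and surface level of the pore-forming alpha subunits. *SCN3B* (ENSDARG00000062359) had 4919.9, 3415, 3507 and 3375 in the *tbx5a*+ libraries, against 2117, 2974, 2741 and 2350 in the *tbx5a*− libraries. The *tbx5a*+ library 2 was the highest and the other 3 lay within a narrow range above all *tbx5a*− libraries. *tbx5a*+ cardiomyocytes averaged 3804 ± 746 and *tbx5a*− cardiomyocytes 2546 ± 384 (SD, n = 4 libraries each). The log2 fold change was 0.57 (95% interval 0.17 to 0.98, adjusted p = 0.532 from limma), higher in 4 of 4 pairs. *SCN4B* (ENSDARG00000099031) had 3328, 3134, 3316 and 3035 in the *tbx5a*+ libraries, against 2588, 2455, 2377 and 2588 in the *tbx5a*− libraries. The spread within each population was small beside the gap between them, at a mean of 3203 ± 143 for *tbx5a*+ cardiomyocytes and 2502 ± 104 for *tbx5a*− cardiomyocytes (SD, n = 4 libraries each). The log2 fold change of 0.36 (95% interval −0.02 to 0.73, adjusted p = 0.716 from limma) was under the 2-fold threshold. Limma's standard error of 0.18 draws on the spread of other genes of similar level. With the pair as a block the adjusted p from limma was 0.489 for *SCN4B* and 0.173 for *SCN3B*. Over 18 alternatives the log2 fold change stayed between 0.24 and 0.38 for *SCN4B* and between 0.44 and 0.65 for *SCN3B*.

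*SCN2B* (ENSDARG00000101713), another beta subunit gene, was sparse. It had 3.08, 0, 0.96 and 21.6 in the *tbx5a*+ libraries, against 23.0, 0, 0 and 8.59 in the *tbx5a*− libraries, on 27 estimated reads against 31. The populations overlapped, and its log2 fold change of −0.09 had a standard error of 1.47.

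The alpha subunit gene at 1 CPM in all 8 libraries is listed under the human-style symbol *SCN10A* (ENSDARG00000102312), which says nothing of its closest zebrafish name. It had 521, 272, 261 and 226 in the *tbx5a*+ libraries, against 186, 318, 90.1 and 222 in the *tbx5a*− libraries. The *tbx5a*+ library 2 was the highest and the *tbx5a*− library 9 the lowest, and the others overlapped. The log2 fold change was 0.70 (95% interval −0.09 to 1.49), higher in 3 of 4 pairs, and fell to 0.19 at its lowest among the alternatives. The adjusted p from limma was 0.723, and 0.530 with the pair as a block. *scn1laa* was found in *tbx5a*+ libraries alone, at 23.6, 0, 2.87 and 10.3, on 37 estimated reads against 0. Its *tbx5a*+ mean was 2.95 times the floor of 3 reads per library, again with no error of that mean counted. The 95% interval of its log2 fold change was −0.19 to 5.23, and it had no unadjusted p under 0.05. It too entered the members through *tbx5a*+ libraries alone, so these values are a description. *scn4ab* (ENSDARG00000034588) and *scn4aa* (ENSDARG00000098738), which encode skeletal muscle sodium channels, were as sparse. *scn4ab* had 54 estimated reads in *tbx5a*+ and 61 in *tbx5a*− libraries, and *scn4aa* had 22 in *tbx5a*+ and 26 in *tbx5a*− libraries. *scn1lab* had 3.17 to 11.8 in *tbx5a*+ libraries, against 17.5 in the *tbx5a*− library 2 and 0 in the other 3. *SCN8A*, known mainly from neurons, had 0 to 11.3 in *tbx5a*+ and 0 to 30.7 in *tbx5a*− libraries. Under the filter, the alpha subunit gene *scn12aa* (ENSDARG00000090724) had 8.6 in the *tbx5a*+ library 9 and 0 in all others. A second *SCN8A* entry (ENSDARG00000005775) was at 0 in all 8.

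None of the 7 well-detected calcium genes stood apart between the populations. *CACNA1C* (ENSDARG00000008398), the pore of the L-type channel, had 2274, 1151, 1287 and 1578 in the *tbx5a*+ libraries, against 1101, 1133, 953 and 1881 in the *tbx5a*− libraries. The ranges overlapped over most of their width, at a mean of 1572 ± 500.2 for *tbx5a*+ cardiomyocytes and 1267 ± 417 for *tbx5a*− cardiomyocytes (SD, n = 4 libraries each), and the log2 fold change was 0.31 (95% interval −0.20 to 0.82). *CACNA1G* (ENSDARG00000089913), a T-type channel that opens at low voltages, had 3491, 2057, 2782 and 2061 in the *tbx5a*+ libraries, against 2190, 2781, 1672 and 2759 in the *tbx5a*− libraries. The populations overlapped, with 2 of 4 pairs higher in *tbx5a*+, and the log2 fold change was 0.14 (95% interval −0.32 to 0.59). A difference of 2-fold lay outside the interval of both genes.

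The alpha2delta subunits, which carry the channel to the membrane, overlapped as well. *cacna2d1a* (ENSDARG00000014804) had 418, 547, 599 and 390.4 in the *tbx5a*+ libraries, against 259.9, 312, 588 and 559 in the *tbx5a*− libraries (log2 fold change 0.25, SE 0.30). *cacna2d2a* (ENSDARG00000103390) had 76.6 to 105 in *tbx5a*+ and 72.5 to 122 in *tbx5a*− libraries (log2 fold change −0.13, SE 0.46). The cytoplasmic beta subunits were close to 0 in fold change, with −0.16 (SE 0.60) for *CACNB1* (ENSDARG00000002167), −0.11 (SE 0.37) for *CACNB4* (ENSDARG00000009738) and −0.03 (SE 0.89) for *cacnb2a* (ENSDARG00000099045). *CACNB1* had 219.8, 18.6, 108 and 225 in the *tbx5a*+ libraries, against 74.6, 96.1, 158 and 142 in the *tbx5a*− libraries, so its mean was higher but its log2 fold change lower in *tbx5a*+. Without the *tbx5a*+ library at 18.6 the log2 fold change was 0.63. *cacnb2a* had 28.2, 42.2, 14.7 and 22.6 in the *tbx5a*+ libraries, against 30.7, 42.0, 15.2 and 22.1 in the *tbx5a*− libraries, and the 2 libraries of each pair had nearly the same value.

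*cacng6b* (ENSDARG00000046079), a gamma subunit gene, was the 1 calcium gene at an unadjusted p under 0.05. It had 25.7, 19.6, 35.4 and 42.3 in the *tbx5a*+ libraries, against 0, 20.4, 0 and 0.86 in the *tbx5a*− libraries. The *tbx5a*− library 8 held nearly all its reads in that population and lay above its *tbx5a*+ partner. The log2 fold change was 3.60 (SE 1.35, adjusted p = 0.579 from limma), on 127 estimated reads against 21. *cacng6b* reached 1 CPM in only 1 *tbx5a*− library and so met the filter through its *tbx5a*+ libraries, and these values are a description. On the other side, *cacna1ha* (ENSDARG00000060496), a second T-type gene, had 0, 0, 2.12 and 4.70 in the *tbx5a*+ libraries, against 14.8, 19.6, 0 and 11.2 in the *tbx5a*− libraries (log2 fold change −1.95, SE 1.40). It entered the members through *tbx5a*− libraries alone, so these values are a description. *CACNA1B*, which encodes an N-type channel of neurons, had 7.62, 3.80, 3.56 and 0 in the *tbx5a*+ libraries, against 25.8, 28.5, 5.29 and 4.37 in the *tbx5a*− libraries, lower in 4 of 4 pairs with overlapping ranges. *CACNA1B* also entered the members through *tbx5a*− libraries alone. *CACNA1E* (ENSDARG00000062346), an R-type channel gene, had 2.04 to 42.4 in *tbx5a*+ and 0 to 80.7 in *tbx5a*− libraries. The P/Q-type channel genes *CACNA1A* and *cacna1aa* were each at 0 in several libraries, at no more than 24.9 in *tbx5a*+ and 24.5 in *tbx5a*−. *CACNA1S*, the L-type channel of skeletal muscle, had 10.3 to 32.5 in *tbx5a*+ and 0 to 31.8 in *tbx5a*− libraries (log2 fold change 1.93, unadjusted p = 0.162 from limma).

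Of the HCN genes, *hcn2b* (ENSDARG00000061665) was well detected in these ventricular cells. It had 392, 424, 428 and 508 in the *tbx5a*+ libraries, against 208, 345, 98.4 and 358 in the *tbx5a*− libraries. The populations did not overlap, and within *tbx5a*− the libraries 2 and 9 lay well under 8 and 10. *tbx5a*+ cardiomyocytes averaged 438 ± 49.2 and *tbx5a*− cardiomyocytes 253 ± 123 (SD, n = 4 libraries each), a ratio of 1.74. The adjusted p from limma was 0.572, and 0.2125 with the pair as a block. The log2 fold change was 0.95 (95% interval 0.23 to 1.68), higher in 4 of 4 pairs. It was 0.56 without the *tbx5a*− library 9 and 0.31 without the *tbx5a*− libraries 9 and 2, the same libraries that had the fewest genes above 0. *HCN4* (ENSDARG00000061685), whose product is the main pacemaker channel of the mammalian sinus node, had 16.4, 0, 0 and 0.94 in the *tbx5a*+ libraries, against 0, 17.4, 0 and 0 in the *tbx5a*− libraries, and 17 estimated reads in each population. A second *HCN4* entry (ENSDARG00000074419), under the filter, had 0, 2.34, 3.14 and 4.80 in the *tbx5a*+ libraries, against 2.27, 5.80, 1.32 and 21.5 in the *tbx5a*− libraries, which is 10.8 estimated reads against 33.9.

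**Figure D4:**
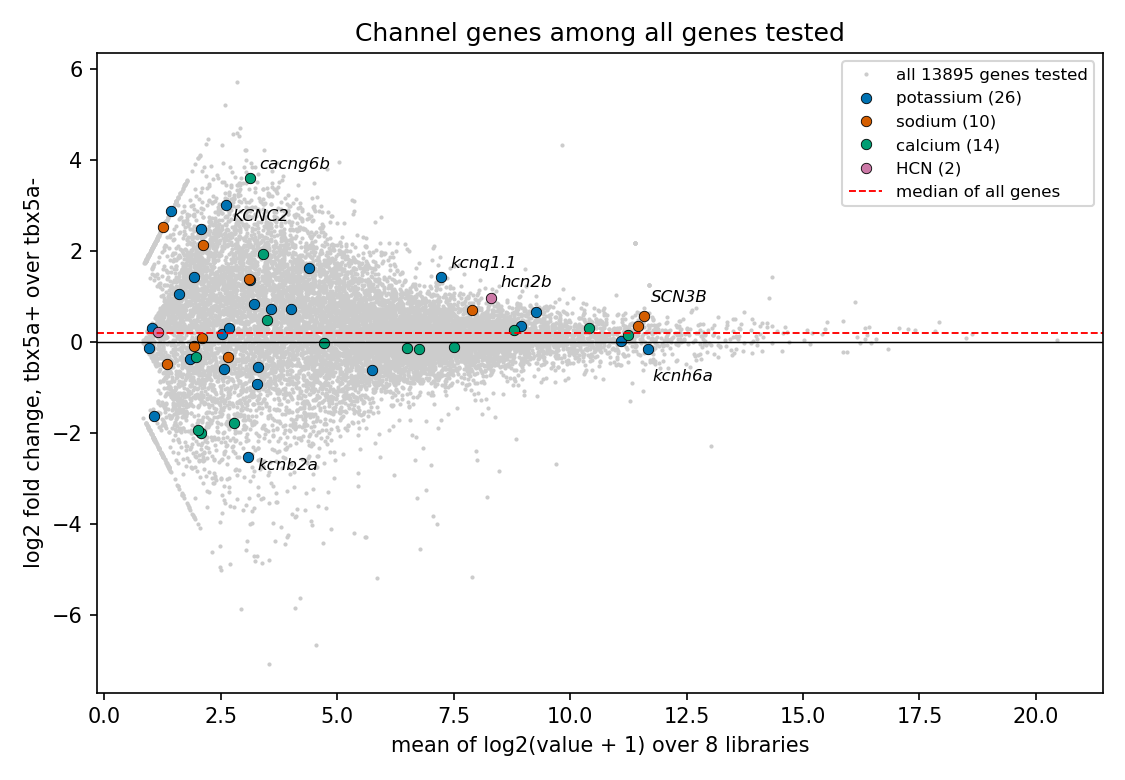
log2 fold change of *tbx5a*+ over *tbx5a*− against the mean of log2(value + 1) over the 8 libraries, with all 13895 genes tested in grey and the 52 channel genes in colour by group. The dashed line marks the median of all genes, 0.20, and the channel genes lie within the cloud of the other genes at every level.

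The plot of all genes tested places the members against genes of the same level. At low levels the cloud is several log2 units wide, and *KCNC2*, *cacng6b* and *kcnb2a* lie inside it. At higher levels it narrows, and *kcnq1.1* and *hcn2b* lie toward its upper edge.

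By current, several channel genes known from cardiac cells were under the filter. A list of genes of 13 cardiac currents, written with earlier results known, had 57 entries in the table, of which 23 were tested, 21 were at 0 in all 8 libraries and 13 were above 0 but under the filter. The transient outward current had 0 of 4 genes tested, with *KCND3*, *KCNIP2* and *KCNA4* at 0 in all 8 libraries and *KCND2* no higher than 6.58. The acetylcholine-activated potassium current had 0 of 3 tested, with *KCNJ5* at 0 in all 8. For the inward rectifier, the 2 *KCNJ2* entries, 1 at 0 and 1 no higher than 3.82, were under the filter, so that *kcnj14* and *kcnj12a* were the 2 genes tested. For the rapid delayed rectifier *kcnh6a* alone was tested, and *KCNH2* was no higher than 13.6. For the slow delayed rectifier *kcnq1.2* was at 0 in all 8 libraries, so that *kcnq1.1* held the reads of this pair. For the pacemaker current, *hcn3* was at 0 in all 8 libraries and the second *HCN4* entry was under the filter. The L-type beta subunit gene *cacnb2b* had 0, 2.94, 28.3 and 6.65 in the *tbx5a*+ libraries 2, 8, 9 and 10 and was at 0 in the *tbx5a*− libraries. Most of its sum of 37.9 came from library 9, and it reached the filter's CPM in too few libraries. A value of 0 in so little RNA does not show that a gene is silent, and reads of near-identical duplicate genes may have been divided between them by the authors' counting.

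Genes whose products bind or anchor these channels were counted in the same way. Of 41 partner genes tested, from a list also written with earlier results known, 0 were called either way, against 0.0072% of all genes tested called higher and 0.187% lower. At an unadjusted p under 0.05, 6 were higher (against 4.62% of all genes tested) and 0 lower (against 2.44%), and the median log2 fold change was 0.26, against 0.20 for all genes tested. *ABCC9*, the sulfonylurea receptor that forms the cardiac ATP-sensitive potassium channel together with an inward rectifier pore, had 1138, 853, 1005 and 984 in the *tbx5a*+ libraries, against 429, 686, 564 and 669 in the *tbx5a*− libraries. The populations did not overlap (log2 fold change 0.78, SE 0.24, adjusted p = 0.413 from limma), while the pore gene *kcnj11* was sparse and *KCNJ8* was at 0 in all 8 libraries. *LRRC10*, a cardiac protein that binds the L-type channel in mammals, had 1527, 793, 910.1 and 739 in the *tbx5a*+ libraries, against 735, 570.2, 433 and 584 in the *tbx5a*− libraries, without overlap (log2 fold change 0.74, SE 0.26, adjusted p = 0.566 from limma). The other 4 at that p were the scaffold genes *ank2b* (0.41) and *ANK3* (0.59), which encode ankyrins that anchor channels and pumps, and *JPH2* (0.78) and *JPH1* (ENSDARG00000058603, 0.68), which encode junctophilins that hold calcium channels near the sarcoplasmic reticulum, each value being a log2 fold change. A second *JPH1* entry (ENSDARG00000038826) went the other way, with a log2 fold change of −0.81 (SE 0.60), and was lower in 2 of 4 pairs. *RRAD*, a GTPase that inhibits L-type channels, had 3524 to 5108 in *tbx5a*+ and 3123 to 5520.5 in *tbx5a*− libraries (log2 fold change 0.08, SE 0.20).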

How the data were processed

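RNA-Seq libraries were prepared by the authors from 0.6 ng of total RNA per sample and sequenced as 60-base single reads. For trimming and counting, the study's methods cite cutadapt and RSEM with Ensembl release 82. The processing notes of the submitters list CASAVA 1.8.2, RSEM 1.2.3 and Zv9 instead, and the version behind the table is not stated in the sources used. What the authors deposited is a normalized signal, 1 value per gene and library, and not counts. Per library, 70.5% to 77.0% of the values below 60 lay within 0.0051 of a whole multiple of 1 spacing, which does not recover whole reads for nearly all genes. Estimated reads are values divided by that spacing.

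Libraries were mapped to populations and pairs by the sample labels. Genes with 1 CPM in 2 libraries were kept, limma 3.58.1 (R 4.3.3) was run on log2(value + 1) with a variance trend and no block, and p-values were adjusted over all 13895 genes by the Benjamini–Hochberg method. The pseudocount of 1 understates changes of low genes. Tables and figures used Python 3.11.15, numpy 2.4.6, pandas 2.3.3 and matplotlib 3.10.9. Labels pair the libraries by number; deviations of same-numbered libraries from their population means correlated across genes at 0.0890, 0.0584, 0.0428 and 0.0763 for the pairs 2, 8, 9 and 10, each library best with its own number. The 2 libraries of a number share a pool of hearts, and no libraries were duplicates. For genes at 0 reads in a population a floor of 3 reads was set. It covers the counting error of the 0 alone, and no error of the other population.

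Symbols came from a table of Ensembl names, which held one for 13000 of the genes tested. The members, lists and rules were chosen with earlier results of these data known. Genes were named if among the highest by mean value (potassium 10, calcium 8, sodium 5, HCN all), called, at an unadjusted p under 0.05, without overlap between populations, or in the list of cardiac currents. A few genes that the rule names are not reported here, though the counts include them. Others named are said to be so or are given by range. Alternatives were pseudocounts of 0.25 and 5, no filter and 1 CPM in 4 libraries, CPM and upper quartile scaling, limma-voom, a robust fit, the pair as a block, each library left out, and 2 libraries left out.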

Additional observations from a re-analysis of the deposited data

Results flagged for a closer look

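Of 66 sets of 4 libraries (33 named genes in each population), 13 held a library far from the other 3, where chance marks about 1 in 20 if values are normally spread, which those of sparse genes are not. In *tbx5a*+ libraries these were *SCN3B* (4919.9), *kcnk4a* (2880.1), *SCN10A* (521), *KCNAB2* (45.2) and *HCN4* (16.4) in library 2, *scn4aa* (21.0) in library 9 and *SCN2B* (21.6) in library 10. In *tbx5a*− libraries they were *KCNAB2* (102) and *scn4aa* (26.3) in library 2, *cacng6b* (20.4) and *HCN4* (17.4) in library 8, and *KCNN2* (28.3) and *kcnj12a* (9.45) in library 10. All 13 values are the highest of their set. Most are of sparse genes with the other libraries at or near 0, whereas *SCN3B*, *kcnk4a* and *SCN10A* reached 1 CPM in every library and shared the *tbx5a*+ library 2.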

How the results depend on the processing

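Under all 18 alternatives 0 channel genes were called higher and 0 lower in *tbx5a*+. With the pair as a replicate block 9 members were higher and 0 lower at an unadjusted p under 0.05, and the block changed no call of a member. The shares of all genes at that p were not counted under the block or the other alternatives. The counts of members there have no background beside them. The count of 7 higher was 4 without the *tbx5a*− libraries 2 and 9, and 3 to 8 when each library was left out. The count of 0 lower was 1 with limma-voom (*kcnb2a*), 2 without the *tbx5a*− libraries 2 and 9 (*cacna1ha* and *KCNMA1*), and 0 to 1 when each was left out. Both *cacna1ha* and *KCNMA1* passed the 1 CPM filter through *tbx5a*− libraries alone, so the filter favoured this direction for them. No group median moved beyond its SD, though that of HCN genes was -0.26 without those 2 libraries. CPM scaling moved the median of all genes by −0.11, to 0.09. Of 33 named genes 19 never changed sign. Without the *tbx5a*− libraries 2 and 9 the log2 fold change was -0.83 for *HCN4*, -0.13 for *CACNA1G*, 0.06 for *CACNB4*, -0.24 for *kcnk4a*, -1.01 for *KCNH4* (ENSDARG00000062565), 0.31 for *scn4aa*, -1.03 for *scn4ab* and 0.24 for *SCN2B*. *kcnk4a* was -0.1 with CPM scaling and -0.0 with limma-voom, and *SCN2B* 0.19 with a pseudocount of 0.25. With each library left out it ranged from -0.73 to 1.27 for *HCN4*, -0.61 to 1.51 for *CACNA1E*, -0.02 to 0.24 for *CACNA1G*, -0.54 to 0.63 for *CACNB1*, -0.33 to 0.01 for *CACNB4*, -0.27 to 0.21 for *cacnb2a*, -1.84 to 0.04 for *KCNAB2*, -1.37 to 0.44 for *kcnn1a*, -0.34 to 1.61 for *KCNJ13*, -0.24 to 0.14 for *kcnk4a*, -1.59 to 0.58 for *scn4aa* and -0.96 to 0.79 for *SCN2B*. The cause of these changes was not tested. Genes that no longer passed the filter of 1 CPM in 4 libraries have no value there. Sparse members had a median standard error of 1.40, and the part of depth in it was not tested.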
